A study of Homo sapiens with 6 samples.

Results

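This report describes 10 genes of the thioredoxin, peroxiredoxin and KEAP1-NRF2 systems in 3 human lung cancer lines given the diterpenoid AL-X. The genes are TXN, TXNRD1, SRXN1, PRDX1, OSGIN1, NFE2L2, KEAP1, NFE2L1, MAFG and BACH1, taken by name from a table of 60671 gene rows, and all 10 were found there with counts in each of the 6 libraries. A549, HCC827 and H1975, labelled as non-small cell lung cancer, were each kept for 48 h with AL-X (9α,11αOH-KA) at 10 µg/mL or with DMSO, the solvent. Each line gave 1 AL-X library and 1 DMSO library. The labels give the genotype WT for every line. As background, all 3 are established lung adenocarcinoma lines, A549 is known to carry mutant KEAP1, and HCC827 and H1975 are known to carry mutant EGFR.

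Thioredoxin is a small protein that reduces disulfides in other proteins, and thioredoxin reductase recharges it with electrons from NADPH. Peroxiredoxins break down hydrogen peroxide and are themselves recharged by thioredoxin, while sulfiredoxin rescues peroxiredoxins that have been over-oxidised. Many of these genes are targets of NRF2, encoded by NFE2L2, a factor that binds antioxidant response elements as a dimer with a small MAF protein. In unstressed cells KEAP1 holds NRF2 and delivers it for degradation, and electrophiles that modify KEAP1 cysteines release it. BACH1 competes with NRF2 for the same elements, and lung tumours that have lost KEAP1 function keep NRF2 active.

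Total counts ranged from 98139178 to 126840915 per library, so counting error is small for all 10 genes, the lowest of which had 532 counts. Genes of the mitochondrial genome took 0.0201% to 0.656% of counts in the AL-X libraries and 6.41% to 6.87% in the DMSO libraries. With these genes left out before scaling, the folds of the 10 genes across lines moved by at most 0.001 on the log2 scale, although the adjusted p of OSGIN1 was then 0.0710. Levels are given as counts per 1e6 counts (CPM) after TMM scaling, a method that sets the bulk of genes level between libraries. Its factor was 0.557 for A549 with AL-X and lay between 0.903 and 1.27 for the other 5 libraries. Scaling by library totals instead lowered the median fold of all considered genes by 1.00 on the log2 scale in A549 and by 0.41 in H1975, and raised it by 0.13 in HCC827. The 5 epithelial markers checked (EPCAM, CDH1, KRT8, KRT18 and KRT19) summed to 3953, 2125 and 3667 CPM in A549, HCC827 and H1975 with AL-X, against 4368, 2777 and 3003 CPM with DMSO. In H1975 the direction depends on scaling, since library totals gave 3309 CPM with AL-X, against 3597 CPM with DMSO. With DMSO, EPCAM had 2.67, 291 and 400 CPM and KRT19 5, 463 and 730 CPM in A549, HCC827 and H1975, so A549 was far lower in both. KRT8 and KRT18 were at least 2-fold higher in A549 than in both other lines. CDH1 had 15.6, 606 and 599 CPM in A549, HCC827 and H1975 with AL-X, against 209, 405 and 595 CPM with DMSO. The 8 markers of other cell types summed to between 18 and 378 CPM with AL-X and to between 19.9 and 95.6 CPM with DMSO, and 6 of the 8 were under 1 CPM in each library. The leukocyte genes PTPRC and CD3E had 0 counts in all 6 libraries, a count that allows up to 3 counts per library. CD68, a lysosomal protein used as a macrophage marker, made up most of each sum, at 16.1, 371 and 52.6 CPM in A549, HCC827 and H1975 with AL-X, against 13.1, 69.7 and 80.9 CPM with DMSO. COL1A1, a collagen of fibroblasts, had 1.17, 6.27 and 7.89 CPM with AL-X, against 6.37, 16 and 13.7 CPM with DMSO. The part of CD68 and COL1A1 in the results was not tested. In bulk cultures such as these, fewer cells of a kind and less RNA per cell cannot be told apart.

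The stretches before the annotated starts of 3 genes are shown because they hold letters that NRF2 or the related AP-1 factors are known to bind. RefSeq on GRCh38.p14 gave 15 promoter windows for 9 of the 10 genes, each from 250 bases before to 50 bases after a start, and the first 250 bases are printed here 5′ to 3′ along the gene. Capitals mark the antioxidant response element core, TGACNNNGC read on either strand, in TXNRD1 and KEAP1, and the AP-1 motif TGANTCA in OSGIN1.
TXNRD1, chr12:104215529-104215778, + strand: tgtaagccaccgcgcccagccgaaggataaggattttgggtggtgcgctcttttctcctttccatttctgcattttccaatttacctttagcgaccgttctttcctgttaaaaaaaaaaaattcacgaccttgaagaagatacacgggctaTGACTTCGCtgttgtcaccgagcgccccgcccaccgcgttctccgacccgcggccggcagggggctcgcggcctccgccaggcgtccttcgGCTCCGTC
TXNRD1, chr12:104286782-104287031, + strand: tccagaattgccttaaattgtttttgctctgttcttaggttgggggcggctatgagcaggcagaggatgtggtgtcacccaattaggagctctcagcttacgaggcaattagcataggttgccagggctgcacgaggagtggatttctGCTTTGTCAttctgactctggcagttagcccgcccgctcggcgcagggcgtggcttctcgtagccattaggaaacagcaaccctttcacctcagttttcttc
KEAP1, chr19:10502772-10503021, − strand: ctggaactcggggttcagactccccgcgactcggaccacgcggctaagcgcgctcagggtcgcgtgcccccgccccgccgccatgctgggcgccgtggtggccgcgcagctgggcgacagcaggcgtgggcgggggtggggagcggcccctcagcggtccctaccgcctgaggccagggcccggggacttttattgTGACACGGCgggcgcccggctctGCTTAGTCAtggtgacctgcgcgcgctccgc
OSGIN1, chr16:83952990-83953239, + strand: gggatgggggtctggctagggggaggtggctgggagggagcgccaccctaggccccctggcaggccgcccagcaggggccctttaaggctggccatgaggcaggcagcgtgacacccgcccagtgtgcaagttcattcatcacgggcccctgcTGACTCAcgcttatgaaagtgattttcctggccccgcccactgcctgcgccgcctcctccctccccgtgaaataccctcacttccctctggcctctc
The core was found in 3 of the 15 windows, those of 2 genes, and in 13.3% of all 35116 promoter windows of the same length. In the first TXNRD1 window it begins 99 and 8 bases before the start, the last letter of the nearer match lying just past the printed stretch, in the other 102 bases before it, and in the KEAP1 window 54 and 31 bases before it. TGANTCA was found in 2 of the 15 windows, 97 bases before the start in OSGIN1 and 48 bases before it in BACH1, and in 7.71% of all windows. No AP-1 match overlapped a core match. These are matches of letters, and windows farther from a start were not searched.

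**Figure D1:**
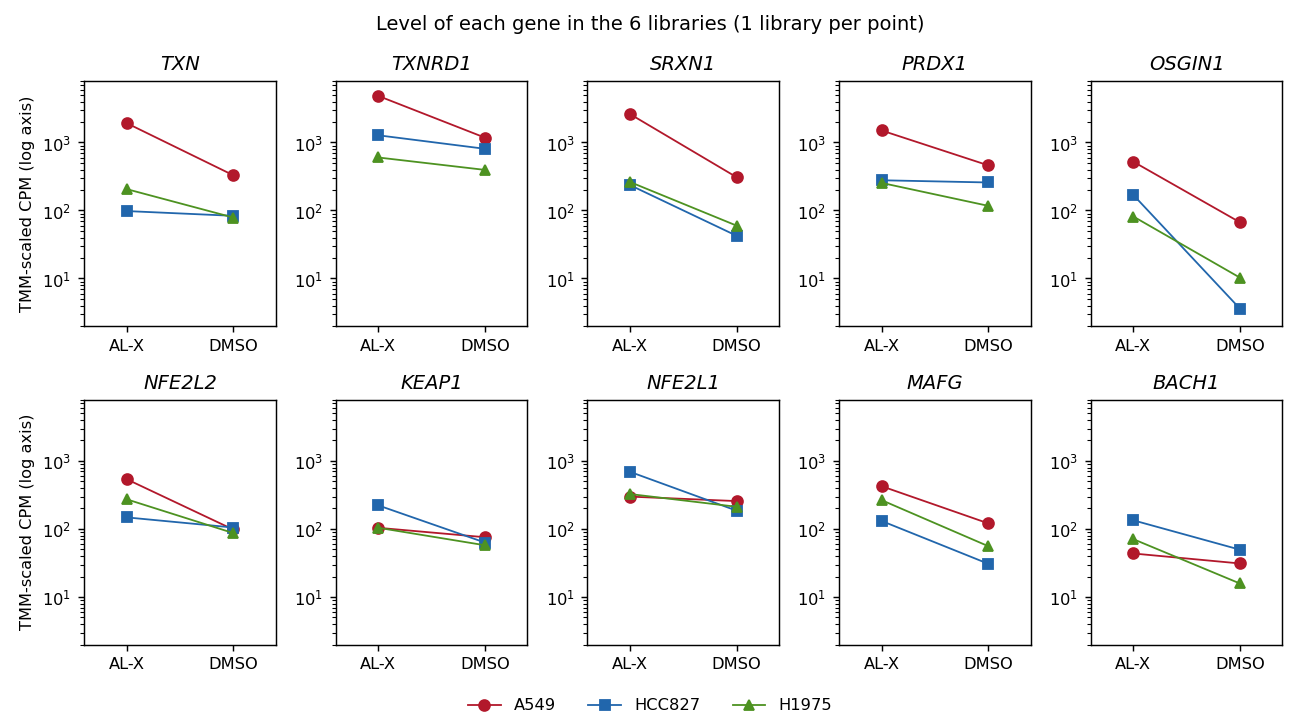
Level of each of the 10 genes with AL-X (left) and with DMSO (right), as TMM-scaled CPM on a log axis, 1 point per library and 1 line per cell line. With this scaling every line runs down from AL-X to DMSO, and OSGIN1 spans the widest range, 3.61 to 521 CPM.

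The first comparison asks which of these genes responded to AL-X alike in the 3 lines. All 10 had a higher fitted level with AL-X than with DMSO, but only OSGIN1 passed the test across lines. Its log2 fold was 3.78 (SE 0.68), with an adjusted p of 0.0477 in edgeR's quasi-likelihood test with the cell line as a block and Benjamini-Hochberg adjustment over 20344 genes. Of all genes tested, 0.0983% passed as higher (20 genes) and 0.157% as lower (32 genes). SRXN1, NFE2L2, MAFG and BACH1 had an unadjusted p under 0.05 beside OSGIN1, which makes 5 of the 10, all higher. Of all genes tested, 5.48% were higher and 10.2% lower at that unadjusted p. DESeq2 and limma-voom each called 3 of the 10 as higher, SRXN1, OSGIN1 and MAFG. DESeq2 called 3.24% of the 18766 genes it gave an adjusted p as higher and 7.51% as lower, and limma-voom 1.44% of all genes tested as higher and 1.60% as lower. The median fold of the 10 genes was 1.38 on the log2 scale, beside a median of -0.27 over all genes tested. In 5 of the 10 (OSGIN1, NFE2L2, KEAP1, NFE2L1 and MAFG) every AL-X library lay above every DMSO library, as did 7.78% of all genes. With library totals this held for NFE2L2 and MAFG, 2 of the 10, and for 5.27% of all genes.

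OSGIN1 encodes an oxidative stress induced growth inhibitor and is a known NRF2 target. It had 521 CPM in A549, 169 CPM in HCC827 and 81.5 CPM in H1975 with AL-X, against 67.1, 3.61 and 10.3 CPM in the same lines with DMSO. The groups did not overlap, although H1975 with AL-X stood only slightly above A549 with DMSO. The call rests on the choice of libraries and scaling: the adjusted p in edgeR was 0.00151 without A549, 0.05 to the digits given and not under the threshold without HCC827, 0.0744 without H1975, and 0.252 with library totals. DESeq2 gave an adjusted p of 1.88e-06 and limma-voom 0.00162. The gene lies on chromosome 16 at 83948282-83966332 (ENSG00000140961, + strand).

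TXN encodes thioredoxin itself (chromosome 9, 110243811-110256640). It had 1923 CPM in A549, 98 CPM in HCC827 and 206 CPM in H1975 with AL-X, against 330, 83.4 and 78.8 CPM with DMSO. A549 was the highest line in both conditions, HCC827 hardly differed between them, and the groups overlapped. Across lines the log2 fold was 1.39 (SE 0.68, adjusted p 0.346, edgeR). Of its named pseudogenes, the one with the most counts, TXNP4, held 0.0169% as many as TXN.

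TXNRD1 encodes the cytosolic thioredoxin reductase (chromosome 12, 104215779-104350305). It had 4829 CPM in A549, 1274 CPM in HCC827 and 601 CPM in H1975 with AL-X, against 1178, 807 and 395 CPM with DMSO. The order of the lines was the same in both conditions, and the groups overlapped. The log2 fold across lines was 1.09 (SE 0.75, adjusted p 0.489, edgeR). The pseudogene RPL18AP3 lies inside the gene and held 5.79% as many counts as TXNRD1, and a transcript antisense to it held 0.948%.

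SRXN1 encodes sulfiredoxin (chromosome 20, 646615-653370). It had 2613 CPM in A549, 236 CPM in HCC827 and 262 CPM in H1975 with AL-X, against 309, 42.5 and 59.9 CPM with DMSO. Each line was higher with AL-X, yet both AL-X libraries of HCC827 and H1975 stayed below A549 with DMSO, so the groups overlapped. Over the 3 lines the log2 fold was 2.56 (SE 0.65, adjusted p 0.129, edgeR). Without A549 it was 2.35 (SE 0.56) with an adjusted p of 0.0414, and DESeq2 and limma-voom on all lines gave 6.43e-05 and 0.00934.

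PRDX1 encodes the abundant cytosolic peroxiredoxin that sulfiredoxin repairs (chromosome 1, 45511036-45523047). It had 1499 CPM in A549, 278 CPM in HCC827 and 254 CPM in H1975 with AL-X, against 461, 258 and 117 CPM with DMSO. The groups overlapped, and HCC827 was nearly level between conditions. The log2 fold across lines was 0.98 (SE 0.64, adjusted p 0.463, edgeR). Per length of merged exons, in transcripts per 1e6 transcripts (TPM), PRDX1 was the highest of the 10 genes in all 3 DMSO libraries, at 1200, 722 and 339 TPM in A549, HCC827 and H1975. With AL-X it ranked behind TXN in A549 and H1975 and behind TXNRD1 in HCC827.

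NFE2L2 encodes NRF2 (chromosome 2, 177227595-177392697). It had 539 CPM in A549, 148 CPM in HCC827 and 273 CPM in H1975 with AL-X, against 98.2, 105 and 87.1 CPM with DMSO. The 3 DMSO libraries lay close together, at 96.7 ± 9.01 CPM (SD, n = 3), while the AL-X libraries were spread over 320 ± 200 CPM (SD, n = 3), all above them. Its log2 fold across lines was 1.54 (SE 0.59, adjusted p 0.251, edgeR). AGPS, a gene on the opposite strand that overlaps the annotated NFE2L2 locus, held 59.2% as many counts as NFE2L2. In A549 and H1975 AGPS had fewer counts with AL-X and NFE2L2 more. In HCC827 AGPS had 13908 counts with AL-X, against 15173 counts with DMSO. Those libraries held 98139178 and 126840915 counts in all, so as a share of its library AGPS was not lower with AL-X.

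KEAP1 encodes the sensor that holds NRF2 (chromosome 19, 10486120-10503741). It had 104 CPM in A549, 222 CPM in HCC827 and 104 CPM in H1975 with AL-X, against 75.6, 63.2 and 57.6 CPM with DMSO. HCC827 with AL-X stood apart above the other libraries, and the groups did not overlap. Across lines the log2 fold was 1.03 (SE 0.50, adjusted p 0.337, edgeR). In A549 the direction depends on scaling, since the fold was 0.46 with TMM and -0.55 with library totals.

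NFE2L1 encodes NRF1, a related factor known for raising proteasome genes (chromosome 17, 48048329-48061487). It had 299 CPM in A549, 692 CPM in HCC827 and 326 CPM in H1975 with AL-X, against 257, 186 and 212 CPM with DMSO. HCC827 was the lowest line with DMSO and the highest with AL-X. The log2 fold across lines was 0.90 (SE 0.61, adjusted p 0.478, edgeR), and in A549 the fold was 0.22 with TMM and -0.78 with library totals.

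MAFG encodes a small MAF partner of NRF2 (chromosome 17, 81918270-81927714). It had 425 CPM in A549, 131 CPM in HCC827 and 265 CPM in H1975 with AL-X, against 121, 30.8 and 55.9 CPM with DMSO. The order of the lines was the same in both conditions, and the groups did not overlap. The log2 fold across lines was 2.05 (SE 0.51, adjusted p 0.123, edgeR), while DESeq2 gave an adjusted p of 0.00130 and limma-voom 0.0261. Without A549 the adjusted p in edgeR was 0.0468. SIRT7 overlaps MAFG on the same strand and held 32.8% as many counts.

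BACH1 encodes the repressor that competes with NRF2 (chromosome 21, 29194071-29630751). It had 43.6 CPM in A549, 134 CPM in HCC827 and 70.8 CPM in H1975 with AL-X, against 31.1, 49.6 and 15.8 CPM with DMSO. A549 had the lowest AL-X value, which lay below HCC827 with DMSO, so the groups overlapped. Its log2 fold across lines was 1.37 (SE 0.51, adjusted p 0.239, edgeR). In A549 the fold was 0.49 with TMM and -0.52 with library totals. Per length, BACH1 was the lowest of the 10 genes in 5 of the 6 libraries, and OSGIN1 took that place in HCC827 with DMSO.

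**Figure D2:**
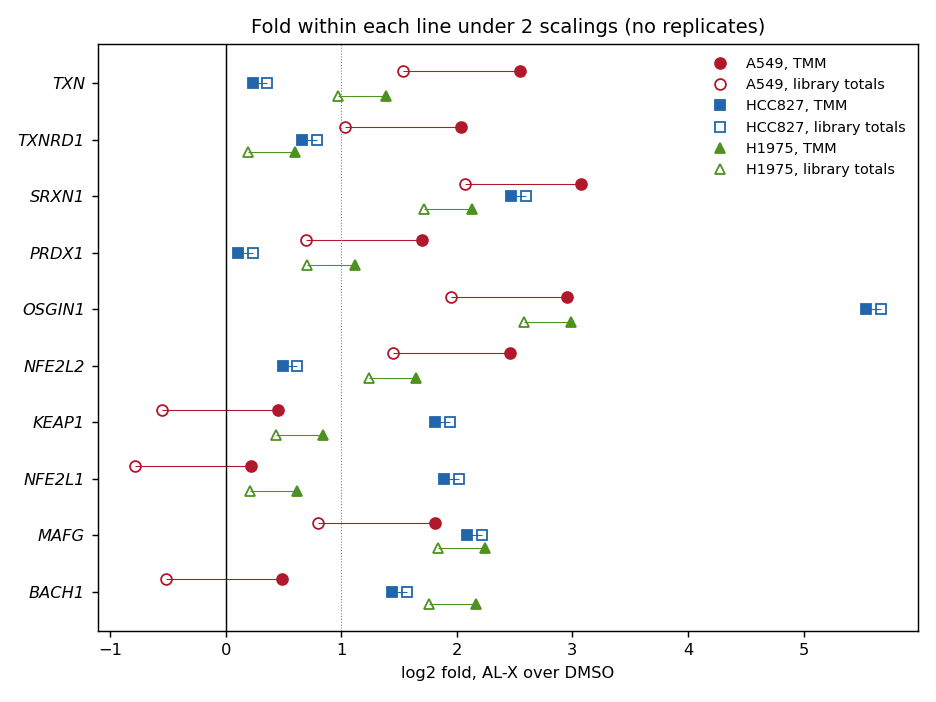
Log2 fold of AL-X over DMSO within each line for the 10 genes, with TMM scaling (filled) and library totals (open), and 1 library per condition. The dotted line marks a 2-fold difference. In A549 the KEAP1, NFE2L1 and BACH1 points move to the left of 0 with library totals, to -0.55, -0.78 and -0.52.

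Within a line there is no replicate, so the folds are values with no test, and their exact binomial 95% intervals cover counting error only. With at least 2-fold and 5 CPM in the higher library as the mark, 7 of the 10 genes were higher with AL-X in A549, 6 in HCC827 and 7 in H1975, and 0 were lower. Of all genes considered, 30.0% were higher and 31.4% lower in A549, 10.7% higher and 17.2% lower in HCC827, and 15.4% higher and 17.7% lower in H1975. With library totals the counts of the 10 were 5, 6 and 5. All genes considered then had a median log2 fold of -1.01, 0.09 and -0.34 in A549, HCC827 and H1975. Their share past the mark was not computed at that scaling. SRXN1, OSGIN1 and MAFG, 3 of the 10, were past the mark in all 3 lines, as were 2.02% of all genes considered, although MAFG in A549 stood at 0.80 with library totals.

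The lines differed in which genes had the larger folds. In A549 the largest were SRXN1 at 3.08 (95% interval 3.06 to 3.10), OSGIN1 at 2.96 (2.92 to 2.99), TXN at 2.54 (2.53 to 2.56) and NFE2L2 at 2.46 (2.43 to 2.49). In HCC827 OSGIN1 led at 5.54 (5.42 to 5.67), followed by SRXN1 at 2.47, MAFG at 2.09, NFE2L1 at 1.89 and KEAP1 at 1.81, while TXN at 0.23, PRDX1 at 0.11 and NFE2L2 at 0.49 were the smallest. In H1975 OSGIN1 at 2.99, MAFG at 2.24, BACH1 at 2.17 and SRXN1 at 2.13 were the largest, and TXNRD1 at 0.60 and NFE2L1 at 0.62 the smallest. So with TMM scaling the effector genes TXN, TXNRD1 and PRDX1 had their largest fold in A549, and KEAP1 and NFE2L1 theirs in HCC827. With library totals the PRDX1 fold was 0.695 in A549 and 0.707 in H1975.

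An interaction term in edgeR asked whether the fold in each line differed from the mean of the others. In A549, HCC827 and H1975, 0 of the 10 genes passed at an adjusted p under 0.05, where 0.280%, 0.261% and 0% of all genes did. At an unadjusted p under 0.05 there was 1 of the 10, OSGIN1, whose fold was higher in HCC827 by 2.58 (SE 1.13, adjusted p 0.489), where 8.19% of all genes were under that unadjusted p. For H1975, where 0 of 20344 genes passed, 236 had an unadjusted p under 0.05. The fold of TXN in A549 differed from that of the other lines by 1.73 (SE 1.24, adjusted p 0.657), and the fold of NFE2L2 in HCC827 differed from that of the other lines by -1.56 (SE 1.14, adjusted p 0.755). Each such test has 1 residual degree of freedom, which comes from the difference between the other lines, so the single pair of the line in question is taken to vary like theirs. These errors are wide, so a p that misses the threshold does not show that the lines responded alike.

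**Figure D3:**
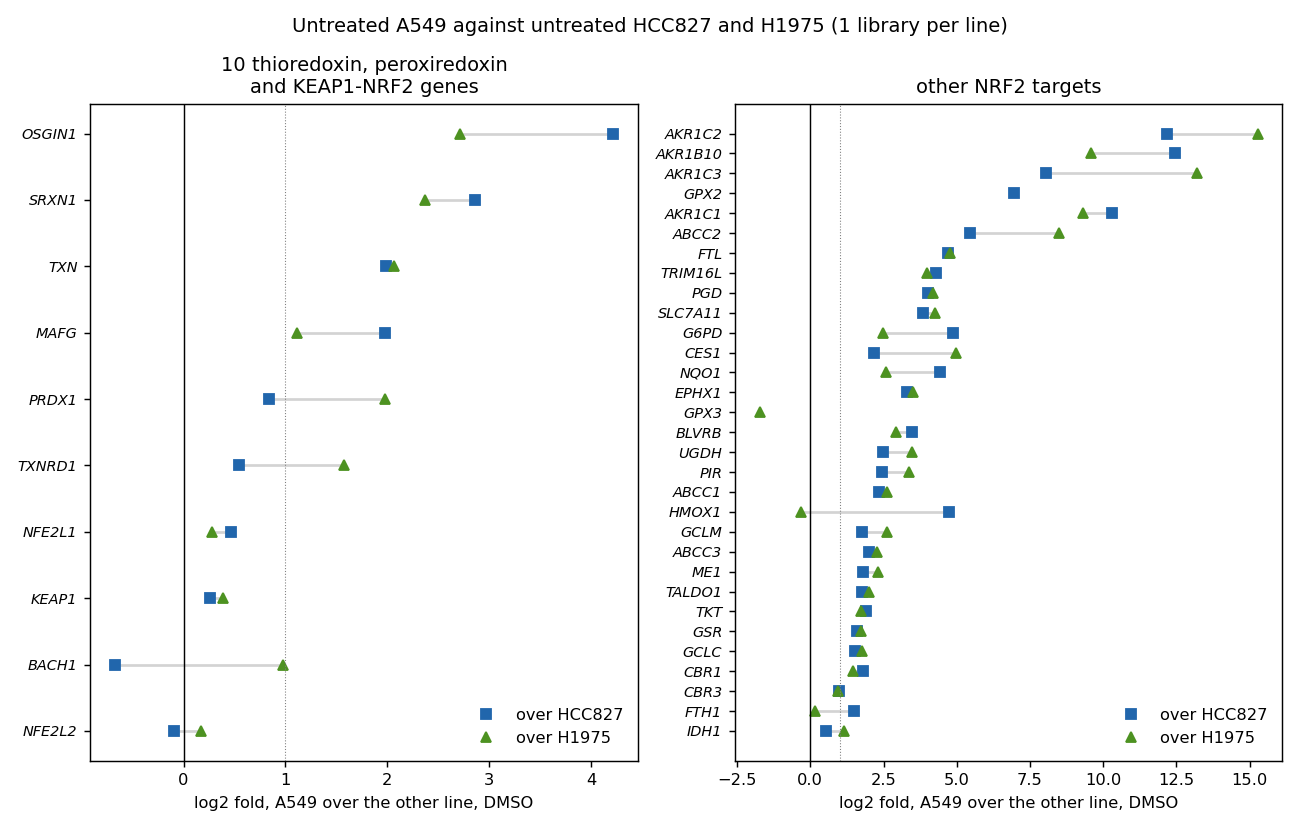
Log2 fold of A549 over HCC827 (squares) and over H1975 (triangles) with DMSO, for the 10 genes (left) and the other NRF2 targets (right), with 1 library per line. Points set against a library with 3 or fewer counts are left out. OSGIN1, SRXN1, TXN and MAFG lie beyond 1 on both, and NFE2L2 lies near 0.

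The second comparison sets untreated A549, the line with mutant KEAP1, against the untreated HCC827 and H1975. With DMSO, TXN, SRXN1, OSGIN1 and MAFG were at least 2-fold higher in A549 than in both other lines, which is 4 of the 10, as were 9.26% of all genes considered. SRXN1 was higher by 2.86 over HCC827 and by 2.37 over H1975 on the log2 scale, OSGIN1 by 4.21 and 2.71, TXN by 1.98 and 2.07, and MAFG by 1.98 and 1.12. TXNRD1 was higher by 0.55 over HCC827 and 1.58 over H1975, and PRDX1 by 0.84 and 1.97, so neither reached 2-fold over HCC827. The regulators NFE2L2 (-0.10 and 0.17), KEAP1 (0.26 and 0.39) and NFE2L1 (0.46 and 0.28) stood nearer to level, unlike MAFG. BACH1 was lower than in HCC827 (-0.67) and higher than in H1975 (0.98).

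In edgeR's test of that contrast, 0 of 20344 genes passed (0%) and 2111 had an unadjusted p under 0.05, 3.37% of all genes as higher in A549. Among these were SRXN1 with a log2 fold of 2.62 (SE 0.43, adjusted p 0.319), TXN with 2.05 (SE 0.39, adjusted p 0.330) and OSGIN1 with 3.31 (SE 0.79, adjusted p 0.360). The test has 1 residual degree of freedom and takes A549, a single library, to vary like the other lines. Any other feature in which A549 differs from HCC827 and H1975 cannot be told apart from its KEAP1 mutation here.

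Treated HCC827 and H1975 were also set beside untreated A549, with no test. SRXN1 in HCC827 and H1975 with AL-X differed from A549 with DMSO by -0.39 and -0.24 on the log2 scale, less than 2-fold in both. OSGIN1 was 1.33 and 0.28 above it, although with library totals H1975 differed by -0.028, and MAFG 0.11 and 1.13 above it. TXN stayed below it, at -1.75 and -0.68, as did PRDX1, at -0.73 and -0.86. KEAP1 in HCC827 with AL-X was above untreated A549 by 1.56 and BACH1 by 2.11.

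**Figure D4:**
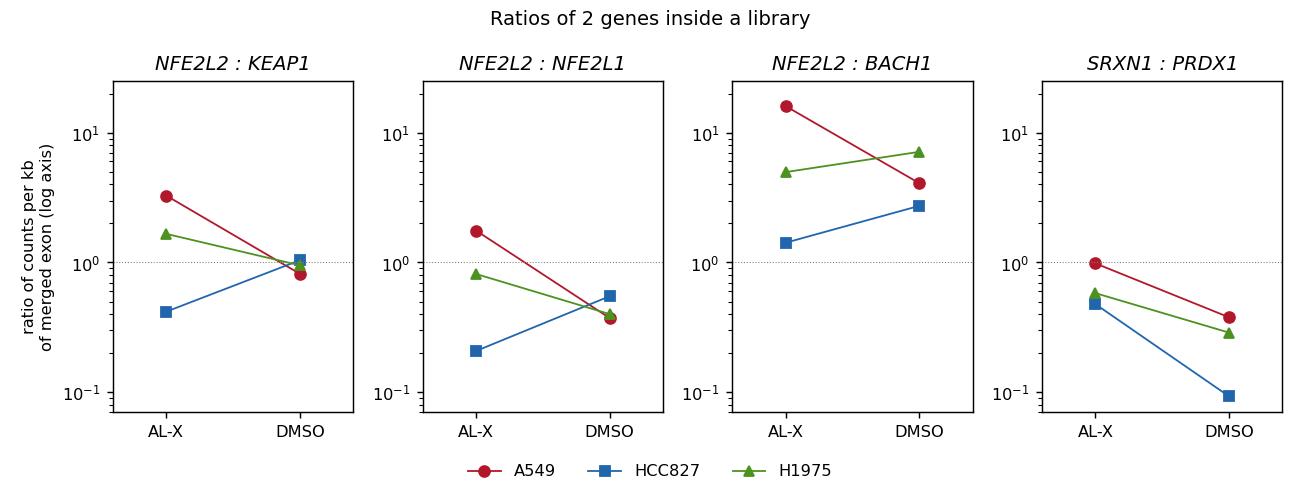
Ratios of the counts per kb of merged exon of a pair of genes inside each library, with AL-X (left) and with DMSO (right) on a log axis. The NFE2L2 to KEAP1 ratio lies between 0.817 and 1.04 in the 3 DMSO libraries and spreads from 0.418 in HCC827 to 3.27 in A549 with AL-X.

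Ratios of a pair of genes inside a library do not depend on the scaling. NFE2L2 had 3.27 counts per kb for each count per kb of KEAP1 in A549 with AL-X, against 0.817 with DMSO. In HCC827 the ratio was 0.418 with AL-X, against 1.04 with DMSO. In H1975 it was 1.66 with AL-X, against 0.95 with DMSO. The untreated lines were thus close to each other, and the treated ones lay on either side of them. The sulfiredoxin to peroxiredoxin ratio, SRXN1 to PRDX1, was higher with AL-X in all 3 lines, at 0.983, 0.477 and 0.58 in A549, HCC827 and H1975, against 0.378, 0.093 and 0.288 with DMSO. The MAFG to BACH1 ratio was 14.4, 1.44 and 5.53 with AL-X, against 5.77, 0.92 and 5.24 with DMSO, so H1975 was nearly level. All 10 genes together took 0.709%, 0.43% and 0.22% of the library with AL-X, against 0.323%, 0.189% and 0.131% with DMSO.

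**Figure D5:**
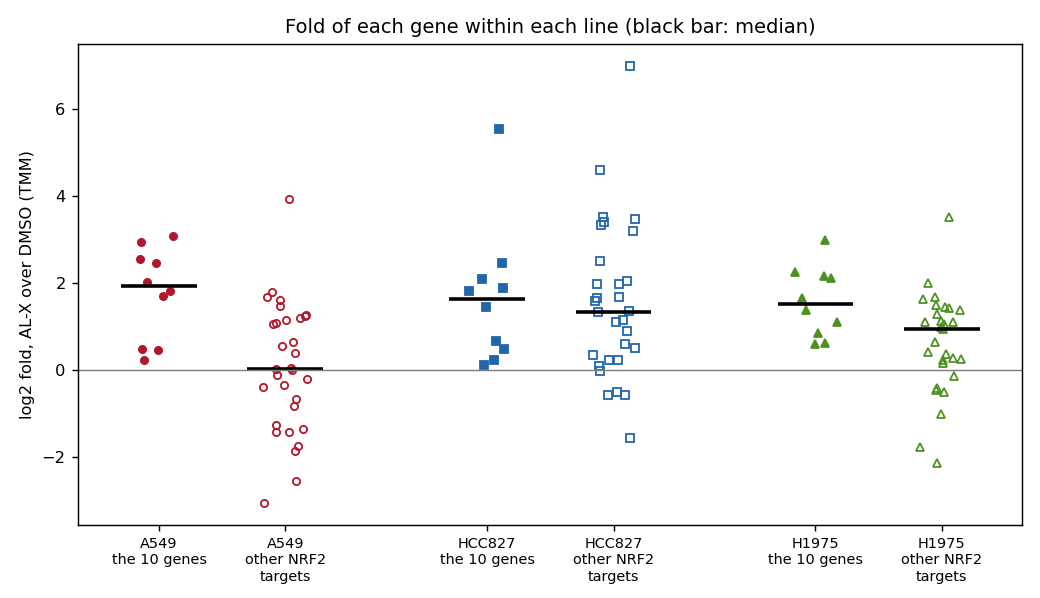
Log2 fold of AL-X over DMSO within each line for the 10 genes (filled) and for the other NRF2 targets (open), 1 point per gene with over 3 counts in both libraries, black bars at the median. The medians of the other targets are 0.03 in A549, 1.34 in HCC827 and 0.95 in H1975.

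The other genes of these systems were read as lists, by their counts and medians. Of 20 further thioredoxin and glutaredoxin genes, 0 passed across lines in edgeR in either direction. An unadjusted p under 0.05 was seen in 3 (2 higher, 1 lower, beside 5.48% and 10.2% of all genes). The median log2 fold of the 20 was 0.27. DESeq2 and limma-voom each called 1 of them, TXNIP, as lower. DESeq2 called 7.51% of the genes it gave an adjusted p as lower, and limma-voom 1.60% of all genes. The lower gene is TXNIP, the thioredoxin inhibitor, at -2.30 (SE 0.65, adjusted p 0.154). It had 0.312, 16.6 and 22.3 CPM in A549, HCC827 and H1975 with AL-X, against 0.443, 87.7 and 292 CPM with DMSO, so A549 lacked nearly all of it in both conditions. The higher ones are TXNL1, a thioredoxin-like protein of the proteasome, at 1.54 (SE 0.55, adjusted p 0.227) and the selenoprotein SELENOW at 1.71 (SE 0.57, adjusted p 0.207). GLRX, cytosolic glutaredoxin, had a fold of -0.99 (SE 0.59, adjusted p 0.429).

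Of the other 5 peroxiredoxins, 0 passed in edgeR, 0 had an unadjusted p under 0.05, DESeq2 and limma-voom called 0, and the median fold was 0.55. Within lines, the median over those with over 3 counts in both libraries was 1.46 in A549 (4 genes), -0.32 in HCC827 (5 genes) and 0.83 in H1975 (5 genes). With library totals and all 5 genes the medians were 0.28, -0.19 and 0.42. In HCC827, 1 of the 5 had a fold above 0 with TMM. PRDX4, the peroxiredoxin of the endoplasmic reticulum, had 182, 53.4 and 86.9 CPM with AL-X in A549, HCC827 and H1975, against 57.4, 44.1 and 44.4 CPM with DMSO, a fold of 0.97 (SE 0.48, adjusted p 0.352). PRDX3, the mitochondrial member, had 373, 40.6 and 126 CPM with AL-X, against 153, 72.1 and 98.4 CPM with DMSO. HCC827 thus ran against the other lines, as it did in the median of these genes. With library totals PRDX3 in H1975 was 113 CPM with AL-X, against 118 CPM with DMSO, and its direction there depends on scaling. PRDX2 had 0 counts in both A549 libraries, where up to 3 counts (0.0445 and 0.0246 CPM) would be allowed. In HCC827 and H1975 it had 46.2 and 112 CPM with AL-X, against 57.7 and 92.8 CPM with DMSO. With library totals PRDX2 in H1975 was 101 CPM with AL-X, against 111 CPM with DMSO, so its direction there also depends on scaling.

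Of 15 other CNC and small MAF factors and KEAP1-NRF2 regulators, 0 passed in edgeR, 3 had an unadjusted p under 0.05 (2 higher, 1 lower, beside 5.48% and 10.2% of all genes), and the median fold was 0.43. DESeq2 and limma-voom each called 1 as higher, MAFF, and 1 as lower, NFE2. Of the genes DESeq2 gave an adjusted p, it called 3.24% as higher and 7.51% as lower. For limma-voom the shares of all genes were 1.44% and 1.60%. MAFF, a small MAF protein induced by stress, had 775, 101 and 604 CPM with AL-X in A549, HCC827 and H1975, against 3.55, 12.9 and 26.5 CPM with DMSO. Its groups did not overlap, and its fold of 4.96 (SE 0.96, adjusted p 0.0643) was above that of any of the 10 genes. MAFK, the third small MAF, had a fold of 1.37 (SE 0.53, adjusted p 0.253). NFE2, a relative of NRF2 known from blood cells, had 0, 9 and 12 counts with AL-X, against 394, 496 and 344 counts with DMSO (adjusted p 0.103). SQSTM1, the autophagy receptor that binds KEAP1, had 2923, 2418 and 875 CPM with AL-X, against 1678, 370 and 529 CPM with DMSO, a fold of 1.39 (SE 0.79, adjusted p 0.407). With library totals SQSTM1 in A549 was 1620 CPM with AL-X, against 1852 CPM with DMSO, so its direction there depends on scaling. Of 10 genes that process or modify NRF1, 0 passed in edgeR, DESeq2 or limma-voom and 0 had an unadjusted p under 0.05 in edgeR, with folds between -0.98 for OGT and 1.27 for HCFC1.

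Of 32 other NRF2 targets, 31 were tested, 0 passed in edgeR, 5 had an unadjusted p under 0.05, all higher (beside 5.48% of all genes), 24 had a fold above 0, and the median fold was 0.68. ALDH3A1, an aldehyde dehydrogenase, did not pass the count filter and was not tested. DESeq2 called 4 as higher (NQO1, HMOX1, FTL and FTH1) and limma-voom 2 (HMOX1 and FTL). The share called higher was 3.24% of the genes DESeq2 gave an adjusted p, and 1.44% of all genes for limma-voom. HMOX1, heme oxygenase, had the largest fold at 4.71 (SE 0.99, adjusted p 0.0849), with 3349, 1043 and 3180 CPM with AL-X in A549, HCC827 and H1975, against 220, 8.17 and 277 CPM with DMSO. FTL, the ferritin light chain, followed at 2.13 (SE 0.92, adjusted p 0.294) and GCLM, a subunit of the enzyme that starts glutathione synthesis, at 1.77 (SE 0.68, adjusted p 0.252). At the lower end stood IDH1, cytosolic isocitrate dehydrogenase, at -0.64 (SE 0.54, adjusted p 0.567) and ABCC3, an export pump, at -0.69 (SE 0.62, adjusted p 0.590). CES1, a carboxylesterase, had the lowest fitted fold, with AL-X counts of 134 (A549), 12 (HCC827) and 0 (H1975), against DMSO counts of 185, 47 and 4 (adjusted p 0.637). Within lines, 11 were at least 2-fold higher and 8 lower in A549, 17 higher and 0 lower in HCC827, and 12 higher and 0 lower in H1975. Of all genes considered, 30.0% were higher and 31.4% lower in A549, 10.7% and 17.2% in HCC827, and 15.4% and 17.7% in H1975, so the counts in A549 are near the share among all genes. With library totals the counts of the list became 1 higher and 15 lower in A549, 18 and 0 in HCC827, and 6 and 1 in H1975. For A549 that scaling put the median log2 fold of the list at -0.97, beside -1.01 for all genes considered. The same pair of medians came to 1.45 and 0.09 for HCC827, and to 0.23 and -0.34 for H1975. No share of all genes past the mark was computed at that scaling, so the 15 lower genes have no such share beside them. SLC7A11, the cystine transporter, and AKR1C1, an aldo-keto reductase, were picked out after their values were seen. SLC7A11 had 81.3, 378 and 27.7 CPM with AL-X, against 478, 32.9 and 24.8 CPM with DMSO, and AKR1C1 had 417, 20.4 and 0.474 CPM, against 1063, 0.821 and 1.67 CPM. Both were lower with AL-X in A549 and higher in HCC827. They were the 2 list genes to pass the interaction test, in HCC827 against the mean of the other lines, where 0.261% of all genes passed. The differences were 4.72 (SE 1.23, adjusted p 0.0462, edgeR) for SLC7A11 and 6.21 (SE 1.28, adjusted p 0.000986) for AKR1C1. With library totals the adjusted p was 0.553 and 0.176, and with no filter 1.00 and 0.395.

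With DMSO, 25 of the 30 tested NRF2 targets with at least 5 CPM in a line were at least 2-fold higher in A549 than in both other lines, beside 9.26% of all genes considered. Outside these, ALDH3A1 had 114450 counts in A549 and 0 in HCC827 and H1975 with DMSO, and 99132, 0 and 0 counts in the same lines with AL-X. Among the genes tested the largest was AKR1C2, with 2578 CPM in A549, against 0.543 CPM in HCC827 and 0.0479 CPM in H1975, followed by AKR1B10 with 3281 CPM, against 0.563 and 4.26 CPM. Both belong to families of close paralogs, among which the counting may have split reads. Of the 20 thioredoxin and glutaredoxin genes 2 were that much higher in A549 and 1 lower, and of the 15 CNC factors and regulators 1 was higher, SQSTM1, and 3 lower, NFE2L3, BACH2 and MAFF, where 10.8% of all genes considered were lower.

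Genes whose level ran most like that of a member over the 6 libraries were found among 11727 tested genes with a mean of at least 5 CPM. TXNRD1 ran closest with RBMS1 (Pearson r 0.996), ZFAND5 (0.994) and FKBP2 (0.993). SRXN1 ran closest with DLEU2 (0.994), PFKFB3 (0.993) and SLC52A2 (0.993), OSGIN1 with MUL1 (0.989), VPS37A (0.984) and CCSAP (0.979), and NFE2L2 with TIMP1 (0.997), RBM34 (0.997) and RSRC2 (0.996). Among the members, KEAP1 and NFE2L1 were close (0.983), as were TXNRD1 and PRDX1 (0.963). These are descriptions over 6 libraries from 3 lines, which share line, treatment and scaling.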

How the data were processed

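RNA was measured in 6 libraries of 3 lines. Per the labels' protocols, RNA was taken with Trizol and libraries were made with the SureSelect XT HS2 mRNA kit. The submitters' processing notes name bcl2fastq 2.20 and GRCh38, and no source used here gives the aligner, counter, annotation or strand setting. As deposited by the authors, the table holds raw whole-number counts per Ensembl gene, with no normalization. With no strand setting given, how far reads of overlapping and antisense genes were assigned to each other cannot be told.

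From these counts, 20344 genes passed filterByExpr, and edgeR 4.0.16 (R 4.3.3; TMM, robust quasi-likelihood test, Benjamini-Hochberg at 0.05) tested them with the line as block, 2 residual degrees of freedom across lines and 1 for a line against the others and for the DMSO libraries. The line in the labels pairs the libraries. No label says that libraries came from separate cultures beyond the lines, so a p-value reflects just how these libraries vary. An SE comes from the fold and its F value. Within-line folds use CPM with a prior count of 2. TPM uses merged exons and gene positions use GENCODE 29 on GRCh38; 60401 of the 60671 identifiers matched a symbol. Exact binomial 95% intervals, computed with scipy 1.17.1, and floors of 3 counts cover counting error only. Alternatives were other scalings, no filter, no robust shrinkage, no block, each line left out, DESeq2 1.42.0, limma-voom (limma 3.58.1) and a prior count of 0.5. The scripts were tested on simulated data.

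The members, the lists and the rule for named genes (the members; up to 3 genes from either end of each list by fold, and any past the threshold; the 3 most alike genes for 4 members; the 2 largest baseline folds) were chosen with earlier results of these data known. SLC7A11, AKR1C1, NQO1, FTH1, ALDH3A1, NFE2L3, PTPRC and CD3E, and a gene named for its overlap with a member, fall outside that rule.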

Additional observations from a re-analysis of the deposited data

Results flagged for a closer look

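For 4 ratios between members, the difference between AL-X and DMSO had the opposite sign in some lines. Each line has 1 library per condition, so these differences were not tested. The log2 ratio of NFE2L2 to KEAP1 with AL-X minus that with DMSO came to 2.00 for A549, 0.80 for H1975 and -1.32 for HCC827, 3.32 between the extremes. For NFE2L2 to NFE2L1 the difference was 2.24, 1.03 and -1.40 in that order, 3.64 between the extremes. For NFE2L2 to BACH1 it was 1.97, -0.52 and -0.95, 2.92 between the extremes. For TXNRD1 to TXN it was -0.51, -0.78 and 0.43, 1.21 between the extremes.

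The fold of AL-X over DMSO differed between lines for 2 of the other NRF2 targets, tested as an interaction in edgeR. For HCC827, 0.261% of all genes passed that test. In HCC827 the fold of SLC7A11 exceeded the mean of A549 and H1975 by 4.72 (SE 1.23, adjusted p 0.0462) and that of AKR1C1 by 6.21 (SE 1.28, adjusted p 0.000986). With library totals the adjusted p was 0.553 and 0.176, and with no filter 1.00 and 0.395, so neither call holds there. The pair was picked after its values were seen, and HCC827, a single pair of libraries, is taken to vary like A549 and H1975. H1975 had 2798 and 48 counts of the pair with AL-X, against 3105 and 209 counts with DMSO. For SLC7A11 in H1975 the direction depends on scaling. With TMM it had 27.7 CPM with AL-X, against 24.8 CPM with DMSO, and with library totals 25 CPM, against 29.7 CPM.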

How the results depend on the processing

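All 10 genes kept a positive fold across lines under every alternative run, but which passed the test did not hold. The 1 member called with edgeR, OSGIN1, became 0 with library totals, with no filter, with mitochondrial genes left out, with no robust shrinkage and with no replicate block (the pairing by line dropped), and 3 with DESeq2 and with limma-voom (SRXN1, OSGIN1 and MAFG). Leaving out a line gave 0 to 3. Over all genes, the 52 calls became 0 with library totals, no filter or no block, 12 with mitochondrial genes left out, 2017 with DESeq2 and 618 with limma-voom, and 106 to 184 with a line left out. OSGIN1 had an adjusted p of 0.0480 with DESeq2 size factors, 0.284 with no filter, 0.0710 with mitochondrial genes left out, 0.0510 with no robust shrinkage and 0.578 with no replicate block. Its fold was 3.78 with mitochondrial genes left out and with no robust shrinkage, as in the result reported. The SE was 0.678 and 0.684 in these settings, against 0.679 in that result, so there it was mainly the adjusted p that moved.

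For a line against the others, the 57 calls for A549 became 24 with size factors and 0 with library totals or no filter, and the 53 for HCC827 became 0 with library totals or no filter. With library totals, the sign turned for SRXN1 in A549 (-0.085), TXNRD1 and SRXN1 in HCC827 (0.175 and 0.702), TXN in H1975 (0.026) and baseline NFE2L2 in A549 (-0.046). With no filter it turned for SRXN1 in HCC827 (0.055) and TXN in H1975 (0.099). The causes were not tested. Leaving out a line there leaves no residual degree of freedom and was not run. The depth is ample for all members, and the number of libraries limits every test.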

Other observations

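The transcript antisense to TXNRD1 (ENSG00000257732) had 28 counts in A549, 7050 in HCC827 and 67 in H1975 with AL-X, against 115, 624 and 244 counts with DMSO. It was thus higher with AL-X in HCC827 and lower in the other lines, with no test, and it was singled out after its values were seen. Because the strand setting is not given, how far its counts hold reads of TXNRD1 cannot be told.

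MMACHC, a cobalamin gene that overlaps PRDX1 on the opposite strand, had 67, 3646 and 369 counts with AL-X, against 776, 5326 and 1506 counts with DMSO, fewer in each line. SIRT7, which overlaps MAFG, had 7202, 7240 and 6634 counts with AL-X, against 3614, 3170 and 4307 counts with DMSO. Both were singled out for their overlap.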
